A study of Homo sapiens with 6 samples.

Results

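The genes described here are 58 factors of ribosome biogenesis and of the nucleolus, the compartment of the nucleus in which ribosomes are built. They were chosen by gene symbol, with earlier results of these data known. The symbols were matched in gencode release 44 to the Ensembl identifiers of the deposited tables. All 58 were found among the 60676 genes listed there, of which 60357 are in that release. Each of the 58 passed the filter on low values, whose limit was a mean of 10 normalized counts, in every comparison. By role they were grouped into RNA polymerase I transcription (6 genes), small nucleolar ribonucleoproteins (snoRNPs, 8 genes), the small subunit processome (18 genes), pre-40S maturation (6 genes), large subunit assembly (16 genes) and multifunctional nucleolar proteins (4 genes). A rule named 27 of the 58 for description, and the other 31 were named after their values were seen.

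RNA polymerase I transcribes the ribosomal RNA precursor in the nucleolus, where snoRNPs guide its chemical modification and assembly factors fold it, cut it and join it with ribosomal proteins. The small subunit processome forms on the nascent precursor, while large subunit particles mature along a separate line and both leave the nucleus through the pores. The pathway draws heavily on amino acids and energy, its activity is known to follow nutrient supply, and many of its genes are known targets of the transcription factor MYC in proliferating cells, colorectal tumour lines included.

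The RNA came from HT29, a human colorectal adenocarcinoma cell line, kept for 48 h in control medium (untreated), in medium lacking histidine or in medium lacking tryptophan. Tryptophan depletion served the study as a comparison for amino acid shortage in general. Polyadenylated RNA of 2 samples per condition was sequenced, 6 libraries in all. RPMI was the base of the medium without histidine and DMEM F-12 that of the medium without tryptophan, both with dialyzed serum. The control in the study's proteomics of both depletions was full RPMI, but what the control medium of the RNA-seq samples was made from is not given in the sources used here, so a shortage of the amino acid and a change of base medium cannot be told apart. Nothing in the labels says that the 2 samples of a condition came from separate cultures, so the spread between them may be technical. The p-values rest on this spread and on a trend of the spread over all genes, which the test (limma) shares between genes. The size of an adjusted p-value should therefore not be compared between the comparisons.

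The libraries held 46390819 and 52607332 reads (untreated), 64388876 and 57574730 reads (histidine depletion) and 50894717 and 59514618 reads (tryptophan depletion). Over the 58 genes the coefficient of variation between the samples of a condition had a median of 2.55% in untreated cells, 1.44% after histidine depletion and 1.40% after tryptophan depletion. It was highest for LTV1 (9.03%, untreated), NOP2 (20.5%, histidine depletion) and PWP2 (18.4%, tryptophan depletion). Of 10 markers of colorectal epithelium, 8 had over 100 reads in every library, while CDX1 had 0 to 20 reads and GPA33 3 to 76. The summed level of the 10 was 8458 and 8700 RPM (reads scaled to the total of their library) in untreated cells, 9036 and 9458 without histidine and 10989 and 11086 without tryptophan. Of 10 mast cell and leukocyte markers, 7 had at most 3 reads in every library (PTPRC at most 2), and the sum of the 10 was 2.46 to 2.81 RPM in untreated cells, 1.55 to 1.84 after histidine depletion and 6.94 to 7.19 after tryptophan depletion, of which CD14 held the most reads. Within the epithelial sum the markers moved apart. KRT8 was at 3681 and 3852 RPM in untreated cells, 5517 and 5811 without histidine and 4624 and 4599 without tryptophan. KRT20 was at 202 and 206, 595 and 599, and 1019.7 and 1007 RPM in the same order. LGALS4 was at 1068 and 1079, 301 and 336, and 1116 and 1091 RPM, so that it was lower without histidine alone. The 6 fibroblast markers summed to at most 1.51 and the 4 endothelial markers to at most 1.10 RPM in any library. The part of the epithelial levels in the results below was not tested.

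The first comparison, histidine depletion against untreated cells, asks how the mRNAs of these factors change when histidine is missing. Most of them rose. Of the 58 genes, 39 were higher (39.1% of the 18288 genes tested were higher) and 15 were lower (38.2% of all genes tested), by limma at an adjusted p under 0.05, and the other 4 did not pass. Together 93.1% of the 58 genes passed, beside 77.3% of all genes tested and 84.7% of those with a mean at least that of the lowest of the 58. The median log2 fold change of the 58 was 0.30, with quartiles at -0.19 and 0.76, beside a median of 0.01 over all genes tested. With quantile normalization, which gives every library the same distribution of values, 32 were higher and 19 lower. The median was then 0.17, beside -0.0165 over all genes tested, and the shares of all genes called in that setting are not given here. Single genes ran from -1.48 (WDR12) to 1.84 (PNO1). With a change of at least 1.5-fold in addition, 20 were higher (26.6% of all genes tested) and 8 were lower (26.6%). Normalized counts are relative to the rest of each library, and in RNA from whole cultures fewer cells of a kind and less RNA per cell cannot be told apart.

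After tryptophan depletion, compared with the same untreated libraries, most of the genes fell. Of the 58 genes, 36 were lower (34.8% of the 17960 genes tested) and 9 were higher (36.1%), while 13 did not pass. Together 77.6% of the 58 genes passed, beside 70.8% of all genes tested. Of the genes with a mean at least that of the lowest of the 58, 78.6% passed, so the 58 did not pass more often than these. The median log2 fold change was -0.25, with quartiles at -0.47 and 0.04 and a range from -1.25 (POLR1E) to 0.67 (RRP12), beside 0.01 over all genes tested. At 1.5-fold or more, 13 were lower (18.9% of all genes tested) and RRP12 alone was higher (18.5%). The count of higher genes rests on small changes, since it was 5 without tryptophan depletion replicate 1 and 4 without replicate 2.

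The direct comparison of the depletions, with all 6 libraries scaled together, tests whether the responses differ. Histidine depletion gave the higher level for 45 of the 58 genes (38.7% of the 18264 genes tested) and tryptophan depletion for 6 (38%), and 7 did not pass. Together 87.9% of the 58 genes passed, beside 76.7% of all genes tested and 84.7% of those with a mean at least that of the lowest of the 58. The median log2 difference, histidine minus tryptophan, was 0.49, beside 0.01 over all genes tested. At least a 1.5-fold difference was present for 26 genes with the higher level after histidine depletion (26% of all genes tested) and for 3 with the higher level after tryptophan depletion (25.9%). With quantile normalization 42 and 10 passed, with a median of 0.42 beside -0.0076 over all genes tested. The shares of all genes called in that setting are not given here. With each library left out in turn the 45 were between 40 and 45, and POLR1C, NAT10, NOB1, DDX56, EBNA1BP2 and NOP2 were those that did not pass in some of these settings. The 6 genes that were lower after histidine than after tryptophan depletion were FBL, WDR12, IMP3, IMP4, MYBBP1A and TBL3. The log2 difference of RRP1B, -0.098, fell just short of the threshold (adjusted p = 0.0516 by limma). RRP1B was called lower with quantile normalization (-0.16, 6.59e-04) and by edgeR on the recovered reads (-0.12, 0.00726).

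**Figure D1:**
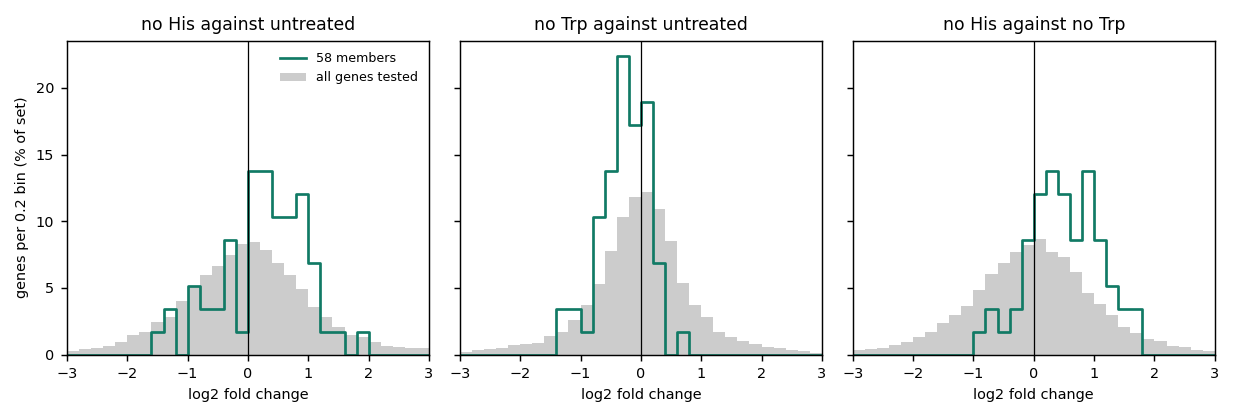
Histograms of the log2 fold change (bins of 0.2, percent of each set of genes) for the 58 genes (green line) and for all genes tested (grey), in histidine depletion against untreated, tryptophan depletion against untreated and histidine against tryptophan depletion. The members lie mostly right of 0 without histidine (median 0.30) and left of 0 without tryptophan (median -0.25), while all genes centre near 0 in each panel.

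Summed, the 58 genes stood at 8857 and 8893 RPM in untreated cells, 10029 and 9912 in histidine-depleted cells and 6662 and 6728 in tryptophan-depleted cells. The groups did not overlap. NCL and NPM1 alone held 15.3% to 15.5% and 17.6% to 18.2% of this sum in untreated cells. Without them the sums were 5923 and 5915, then 6647 and 6605, and then 4830 and 4894 RPM, in the same order of conditions.

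The known regulator MYC was compared in the same way. MYC mRNA was at 14526 and 14191 normalized counts after histidine depletion and at 14651 and 15707 in the untreated libraries of the same table, and its log2 fold change of -0.08 did not pass (SE 0.0520, adjusted p = 0.167 by limma). After tryptophan depletion it was at 8422 and 8784 against 14553 and 15543, a log2 fold change of -0.81 (SE 0.0473, adjusted p = 1.14e-34). Between the depletions the log2 difference was 0.71 (SE 0.0413, adjusted p = 3.87e-11), with the higher level after histidine depletion.

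MYC with its partner MAX is known to bind the E-box, CACGTG, a palindrome that reads the same on both strands. RefSeq promoter windows of GRCh38.p14, 250 bases before to 50 bases after the gene start, were at hand for 46 of the 58 genes. Of these 46, 18 held CACGTG (39.1%), compared with 2030 of all 27305 promoters of that length (7.43%) and 1153 of the 11682 promoters of genes tested after histidine depletion (9.87%). Of the 20 motifs in these 18 promoters, 17 (85%) began within 50 bases of the gene start, compared with 825 of the 2255 motifs in all promoters (36.6%). The sequences from 50 bases before the start to 25 bases from it are shown for 8 genes, 6 that rose after histidine depletion and were higher there than after tryptophan depletion (PNO1, UTP20, RRP9, PES1, MRTO4, WDR43) and 2 that fell in both (FBL, PWP2), so that the position of the motif can be compared between genes that moved in different directions. Capitals mark the E-box, and each is written along the strand of its gene.
PNO1: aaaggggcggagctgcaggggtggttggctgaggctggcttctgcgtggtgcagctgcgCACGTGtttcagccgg
UTP20: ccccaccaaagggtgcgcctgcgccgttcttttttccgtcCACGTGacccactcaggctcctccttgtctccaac
RRP9: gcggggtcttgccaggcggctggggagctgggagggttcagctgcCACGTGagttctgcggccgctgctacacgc
PES1: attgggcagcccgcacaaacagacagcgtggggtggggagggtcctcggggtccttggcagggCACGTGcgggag
MRTO4: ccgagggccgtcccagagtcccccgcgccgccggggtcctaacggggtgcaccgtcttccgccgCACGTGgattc
WDR43: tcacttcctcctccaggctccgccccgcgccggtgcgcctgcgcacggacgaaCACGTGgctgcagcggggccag
FBL: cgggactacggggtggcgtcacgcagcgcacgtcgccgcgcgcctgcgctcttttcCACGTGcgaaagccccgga
PWP2: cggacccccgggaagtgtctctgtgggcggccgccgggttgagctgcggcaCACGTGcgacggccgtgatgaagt
These windows lie at chr2:68157838-68157912 (plus strand), chr12:101280055-101280129 (plus), chr3:51941880-51941954 (minus), chr22:30591886-30591960 (minus), chr1:19251755-19251829 (plus), chr2:28894617-28894691 (plus), chr19:39846355-39846429 (minus) and chr21:44107349-44107423 (plus). The motif starts 10 bases before the gene start in UTP20 and 5 bases before it in RRP9, and from 1 base (PWP2) to 14 bases (MRTO4) after it in the other 6. The median log2 fold change of the 18 genes with the motif was 0.50 after histidine depletion and -0.38 after tryptophan depletion, and that of the 28 genes without it 0.24 and -0.25. Both FBL and WDR43 carry it within 6 bases of the start, and after histidine depletion the first fell and the second rose. A match of these letters is a description and not a bound site, and the part of MYC in the changes was not tested.

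In RNA polymerase I transcription 4 of the 6 genes fell after histidine depletion, 1 rose (POLR1A) and 1 did not pass (POLR1B), with a median log2 fold change of -0.23, where 38.2% of all genes tested were lower and 39.1% higher. Among 16 other factors of this polymerase, which are not members, 9 were higher and 5 lower (median 0.32), and no difference between role groups was tested. After tryptophan depletion 4 fell and 1 rose (34.8% and 36.1% of all genes tested), with a median of -0.41. POLR1E, the PAF53 subunit that helps the polymerase engage its promoter, was at 2315 and 2398 normalized counts in untreated cells, at 943 and 1022 without histidine and at 963 and 1022 without tryptophan. The depleted libraries overlapped each other and all lay far below the untreated ones. Its log2 fold changes were -1.25 (SE 0.0610, adjusted p = 2.51e-15) and -1.25 (SE 0.0569, adjusted p = 1.13e-45), and the direct difference of -0.01 did not pass (adjusted p = 0.825). POLR1A, which encodes the largest subunit of the enzyme, was at 7823 and 8338 in untreated cells, 8885 and 8911 without histidine and 8661 and 8833 without tryptophan. The changes were small, with log2 fold changes of 0.15 (SE 0.0506, adjusted p = 0.0104) and 0.11 (SE 0.0468, adjusted p = 0.0335). The first did not pass without histidine depletion replicate 1 (adjusted p = 0.130) or replicate 2 (0.123), and with quantile normalization POLR1A was called lower instead (-0.094, adjusted p = 0.0186). The second did not pass without tryptophan depletion replicate 1 (0.176) or replicate 2 (0.372), without untreated replicate 1 (0.061, 0.108) or with quantile normalization (0.026, 0.422). The direct difference of POLR1A, 0.02, did not pass (adjusted p = 0.589), and with quantile normalization it was -0.12 (adjusted p = 0.00153).

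POLR1B, the second-largest subunit, was at 4127 and 4352 in untreated cells and at 4576 and 4392 after histidine depletion, a log2 fold change of 0.09 that did not pass (adjusted p = 0.117, and 0.0197 without untreated replicate 2). After tryptophan depletion it fell to 3078 and 3223, with a log2 fold change of -0.44 (SE 0.0488, adjusted p = 9.83e-15). MYBBP1A and TCOF1 responded unequally to the depletions. MYBBP1A, a nucleolar repressor of ribosomal RNA transcription, fell from 4387 and 4546 to 2796 and 3007 after histidine depletion, with a log2 fold change of -0.61 (SE 0.0532, adjusted p = 1.66e-10), and stood at 4397 and 4445 after tryptophan depletion (log2 fold change -0.02, adjusted p = 0.689). TCOF1, which encodes treacle, a scaffold that links the polymerase to the ribosomal DNA, went from 8674 and 8518 to 7069.9 and 7619 after histidine depletion, a log2 fold change of -0.22 (SE 0.0509, adjusted p = 4.36e-04) that did not pass without histidine depletion replicate 1 (adjusted p = 0.0822). After tryptophan depletion TCOF1 was at 5579.8 and 5878 (log2 fold change -0.59, SE 0.0467, adjusted p = 4.20e-24), and the direct difference was 0.36 (SE 0.0440, adjusted p = 9.45e-07). With quantile normalization the change of TCOF1 after histidine depletion was -0.45 and the direct difference 0.23, both past the threshold.

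Among the snoRNP genes, subunits of the same particle moved in opposite directions after histidine depletion. In the group, 5 of 8 rose and 2 fell (39.1% and 38.2% of all genes tested), with a median log2 fold change of 0.39. After tryptophan depletion 5 fell (34.8% of all genes tested) and the other 3 did not pass, with a median of -0.26. Box C/D particles, which guide methylation of ribosomal RNA, hold FBL, the methyltransferase, and its partners NOP56 and NOP58. FBL (chr19:39834458-39846379) was at 25952 and 26851 normalized counts in untreated cells, at 9705 and 10407 without histidine and at 12743 and 12865 without tryptophan. It fell in both conditions, with log2 fold changes of -1.38 (SE 0.0525, adjusted p = 1.96e-17) and -1.05 (SE 0.0485, adjusted p = 7.20e-45), and it was lower after histidine than after tryptophan depletion by a log2 difference of -0.35 (SE 0.0416, adjusted p = 6.29e-07). Per kilobase of annotated exon, FBL stood at 240 RPM in untreated cells, the highest of the 58 genes by this measure, and at 80.6 and 110 after the depletions. That rank depends on the length used. NPM1 has 8311 annotated exon bases but 1320 in its Ensembl canonical transcript, while FBL has 2138 and 1125. NOP56, a core subunit that FBL binds, was at 10979 and 11071 in untreated cells, 19370.1 and 19223 without histidine and 8182 and 8518 without tryptophan. It rose in the first (0.82, SE 0.0497, adjusted p = 1.92e-13) and fell in the second (-0.41, SE 0.0467, adjusted p = 2.59e-14). Small parts of the exons of NOP56 (9.54%) and DKC1 (2.84%) overlap snoRNA and microRNA genes of the same strand.

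NOP58, the third shared subunit, was at 5539 and 5685 in untreated cells and at 6916 and 6681 after histidine depletion, with a log2 fold change of 0.29 (SE 0.0498, adjusted p = 1.50e-05). After tryptophan depletion it was at 5156 and 5261, and its log2 fold change of -0.12 (adjusted p = 0.0230) did not pass without tryptophan depletion replicate 1 (0.306) or replicate 2 (0.133). With quantile normalization the changes of NOP58 were 0.091 (adjusted p = 0.0318) and -0.18 (adjusted p = 2.41e-04). RRP9, a protein specific to the U3 particle, which is needed for the first cuts of the precursor, had the largest difference between the depletions of all 58 genes. It was at 2798 and 2889 in untreated cells, 3920.3 and 4020.1 without histidine and 1226 and 1248 without tryptophan. The log2 fold changes were 0.49 (SE 0.0517, adjusted p = 5.77e-09) and -1.21 (SE 0.0540, adjusted p = 2.48e-46), and the direct difference was 1.68 (SE 0.0448, adjusted p = 1.19e-15).

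Box H/ACA particles, which convert uridine to pseudouridine, also held genes of both directions. DKC1, the pseudouridine synthase dyskerin, was at 16916 and 17201 in untreated cells, 33410.4 and 33054 without histidine and 17130.1 and 17118 without tryptophan. The histidine-depleted libraries stood above the other 4, with a log2 fold change of 0.97 (SE 0.0521, adjusted p = 1.66e-14), while that after tryptophan depletion was -0.0019 (adjusted p = 0.973, but -0.091 and 0.00702 with quantile normalization). GAR1, a subunit of the same particle, was at 1847 and 1962 in untreated cells, 4241 and 4100.5 without histidine and 1858 and 1959 without tryptophan, with log2 fold changes of 1.14 (SE 0.0544, adjusted p = 1.71e-15) and -0.0047 (adjusted p = 0.942). NHP2, an RNA-binding subunit of these particles, fell instead, from 2571 and 2738 in untreated cells to 1883 and 1870.1 without histidine and 1362 and 1366 without tryptophan. Its log2 fold changes were -0.49 (SE 0.0558, adjusted p = 2.20e-08) and -0.97 (SE 0.0540, adjusted p = 1.19e-36), and it was higher after histidine than after tryptophan depletion (0.46, SE 0.0485, adjusted p = 1.32e-07). Genes on the opposite strand overlap 28.1% of the exons of NHP2. NOLC1, a chaperone of both kinds of snoRNP, did not pass in either depletion, with log2 fold changes of 0.01 and 0.01. With quantile normalization NOLC1 was called lower after histidine depletion (-0.24) and lower there than after tryptophan depletion (-0.19).

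**Figure D2:**
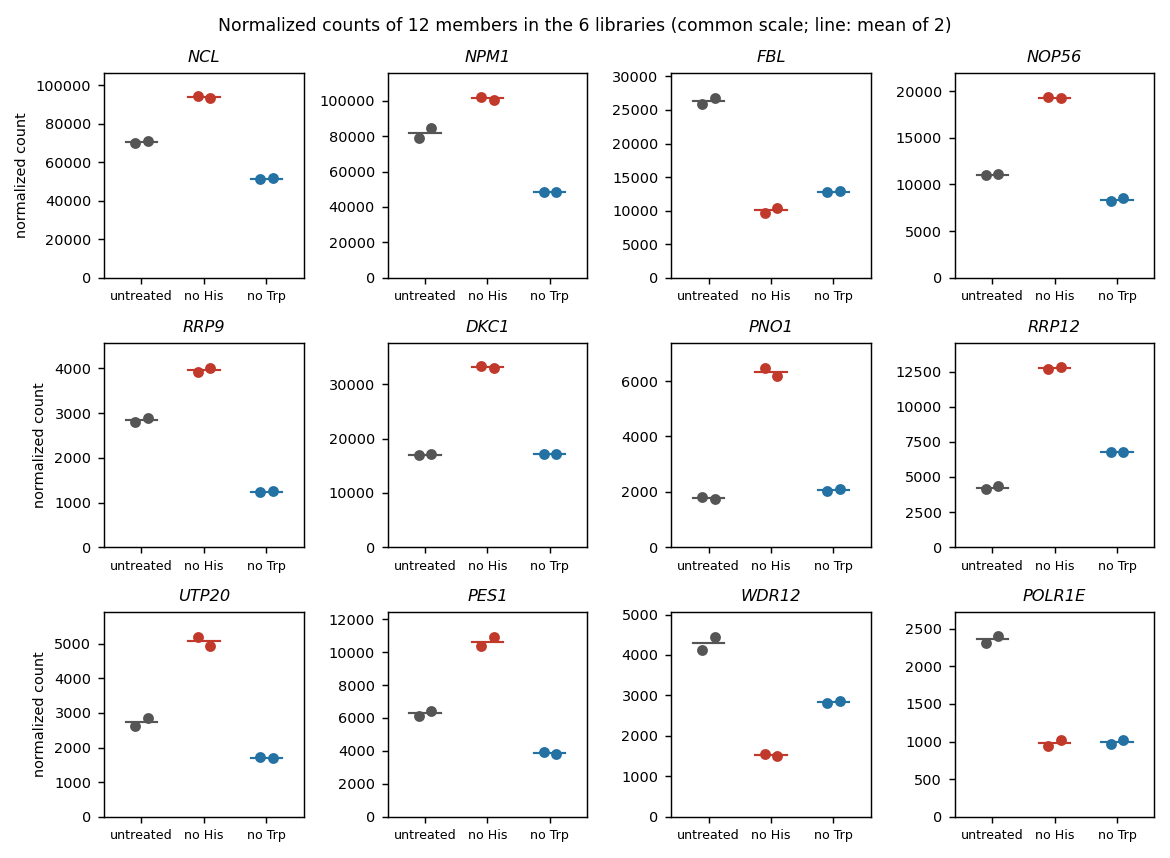
Normalized counts (y axis, linear from 0, all 6 libraries on a common scale) of 12 of the genes in untreated, histidine-depleted (no His) and tryptophan-depleted (no Trp) cells. Points are libraries and lines the mean of 2, and NOP56, RRP9, UTP20, PES1, NCL and NPM1 stand above untreated without histidine and below it without tryptophan, while FBL, WDR12 and POLR1E are below it in both.

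The small subunit processome was the largest group, and 12 of its 18 genes rose after histidine depletion while 5 fell (39.1% and 38.2% of all genes tested), with a median log2 fold change of 0.35. After tryptophan depletion 12 fell and 3 rose (34.8% and 36.1% of all genes tested), with a median of -0.29. In the direct comparison 13 were higher after histidine depletion and 3 after tryptophan depletion (38.7% and 38% of all genes tested), with a median of 0.55. Its parts are named complexes that bind the precursor in turn. The UTP-A complex, which binds first, is represented by UTP4, UTP15, HEATR1, WDR43 and WDR75, and all 5 were higher after histidine depletion, except that HEATR1 was not with quantile normalization (-0.0058, adjusted p = 0.888). UTP15 was at 1684 and 1792 in untreated cells, 3210.1 and 3148 without histidine and 2047 and 2205 without tryptophan, and it rose in both, with log2 fold changes of 0.88 (SE 0.0555, adjusted p = 3.85e-13) and 0.28 (SE 0.0543, adjusted p = 1.67e-06). HEATR1, a large repeat protein of the complex, was at 4889 and 5031 in untreated cells, 5658 and 5432 without histidine and 5867 and 5899.6 without tryptophan. Its log2 fold change was 0.17 (SE 0.0505, adjusted p = 0.00399) after histidine depletion, which did not pass without histidine depletion replicate 1 (adjusted p = 0.137), and 0.24 (SE 0.0469, adjusted p = 2.60e-06) after tryptophan depletion. The direct difference of HEATR1, -0.09, did not pass (adjusted p = 0.0620) but passed without untreated replicate 1 (0.0266) or replicate 2 (0.0264), or with quantile normalization (-0.19, 1.68e-04).

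The other 3 UTP-A genes encode WD-repeat proteins. WDR43 was at 6427 and 6351 in untreated cells, 11651 and 11319.5 without histidine and 5119 and 5084 without tryptophan, with log2 fold changes of 0.85 (SE 0.0491, adjusted p = 6.30e-14) and -0.33 (SE 0.0467, adjusted p = 1.78e-10). The log2 fold changes of WDR75 were 0.62 and -0.25, and those of UTP4 0.52 (0.32 with quantile normalization) and -0.45, all past the threshold. For these 3 the direct difference ran from 0.86 (WDR75) to 1.17 (WDR43).

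UTP-B, which binds after UTP-A, is represented by PWP2, TBL3, WDR3 and UTP18, and its genes split after histidine depletion. UTP18 was at 3182 and 3335 in untreated cells, 4599.7 and 4579 without histidine and 3801 and 3768 without tryptophan, and it rose in both, with log2 fold changes of 0.50 (SE 0.0514, adjusted p = 3.27e-09) and 0.21 (SE 0.0487, adjusted p = 6.85e-05). WDR3 rose to a log2 fold change of 0.24 after histidine depletion and fell by 0.30 on the log2 scale after tryptophan depletion, and TBL3 fell by 0.40 and 0.27. With quantile normalization the rise of WDR3 was 0.083 and did not pass (adjusted p = 0.0689). The direct difference of TBL3, -0.15 (adjusted p = 0.0157), did not pass without tryptophan depletion replicate 2 (0.214), without the limma trend (0.0991) or without the filter on low values (0.0509). Its fall after tryptophan depletion did not pass without the trend (0.0512), and genes on the opposite strand overlap 30.0% of its exons.

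For PWP2 a duplicate locus held more reads than the gene itself. The gene was at 127 and 130.3 normalized counts in untreated cells, 68.7 and 69.2 without histidine and 92.8 and 71.4 without tryptophan, with log2 fold changes of -0.88 (SE 0.166, adjusted p = 4.04e-05) and -0.66 (SE 0.168, adjusted p = 2.54e-04). The tryptophan-depleted libraries differed from each other, and the log2 fold change was -0.84 without replicate 1 and -0.48 without replicate 2. Release 44 marks a locus at chr21:5130871-5154658 (ENSG00000275464, minus strand) as an artificial duplicate of PWP2 in the genome assembly, and the gene itself is at chr21:44107373-44131181 (ENSG00000241945). The duplicate held 636 and 737 reads in the untreated libraries, where PWP2 itself held 116 and 131. On the common scale the sum of both loci was 822 and 863 normalized counts in untreated cells, 478 and 508 without histidine and 592 and 562 without tryptophan. The sum was thus 0.585 times and 0.685 times the untreated level, compared with 0.536 times and 0.639 times for PWP2 alone, and the depleted libraries lay below the untreated ones either way. No test was made on the sum, and reads that mapped equally to both loci may be missing from it.

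The MPP10 complex, a scaffold that stabilizes the pairing of U3 with the precursor, consists of MPHOSPH10, IMP3 and IMP4. IMP4 was at 5329 and 5568 in untreated cells, 2671 and 2800.1 without histidine and 3859.7 and 4002 without tryptophan. IMP3 was at 1283 and 1259 in untreated cells, 688 and 708 without histidine and 1087 and 1053 without tryptophan. Both fell, IMP4 by log2 fold changes of -0.98 (SE 0.0520, adjusted p = 1.19e-14) and -0.48 (SE 0.0476, adjusted p = 1.77e-17), and IMP3 by -0.86 (SE 0.0666, adjusted p = 2.23e-11) and -0.26 (SE 0.0610, adjusted p = 9.69e-05). Both were also lower after histidine than after tryptophan depletion, by log2 differences of -0.52 and -0.62. With quantile normalization the change of IMP3 after tryptophan depletion was -0.17 (adjusted p = 0.0115). Genes of the opposite strand, SNX33 among them, overlap 58.1% of the exons of IMP3. MPHOSPH10, the name-giving scaffold, rose to a log2 fold change of 0.31 (SE 0.0543, adjusted p = 1.56e-05) after histidine depletion and did not pass after tryptophan depletion (0.04, adjusted p = 0.465).

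Of the remaining processome genes, UTP20 and the helicase DDX52 differed most between the depletions. UTP20, a very large repeat protein that joins late, was at 2631 and 2844 in untreated cells, 5196 and 4936 without histidine and 1714 and 1701 without tryptophan. No group overlapped another, with log2 fold changes of 0.90 (SE 0.0545, adjusted p = 1.86e-13) and -0.69 (SE 0.0528, adjusted p = 6.52e-25) and a direct difference of 1.57 (SE 0.0480, adjusted p = 6.52e-15). DDX52 was at 4933 and 5026 in untreated cells, 11963 and 11829 without histidine and 5291 and 5343 without tryptophan. It rose after histidine depletion (1.27, SE 0.0489, adjusted p = 2.83e-17), while after tryptophan depletion its log2 fold change of 0.09 did not pass (adjusted p = 0.0889, and 0.0147 without untreated replicate 2). BMS1, the GTPase of the processome, and NOP14 also rose after histidine depletion (0.96 and 0.38), NAT10, an RNA acetyltransferase, fell (-0.26), and DDX10 did not pass (0.04). After tryptophan depletion NOP14, NAT10 and DDX10 fell (-0.39, -0.37 and -0.59) and BMS1 did not pass (0.07). With quantile normalization the change after histidine depletion was 0.18 for NOP14 and -0.51 for NAT10.

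**Figure D3:**
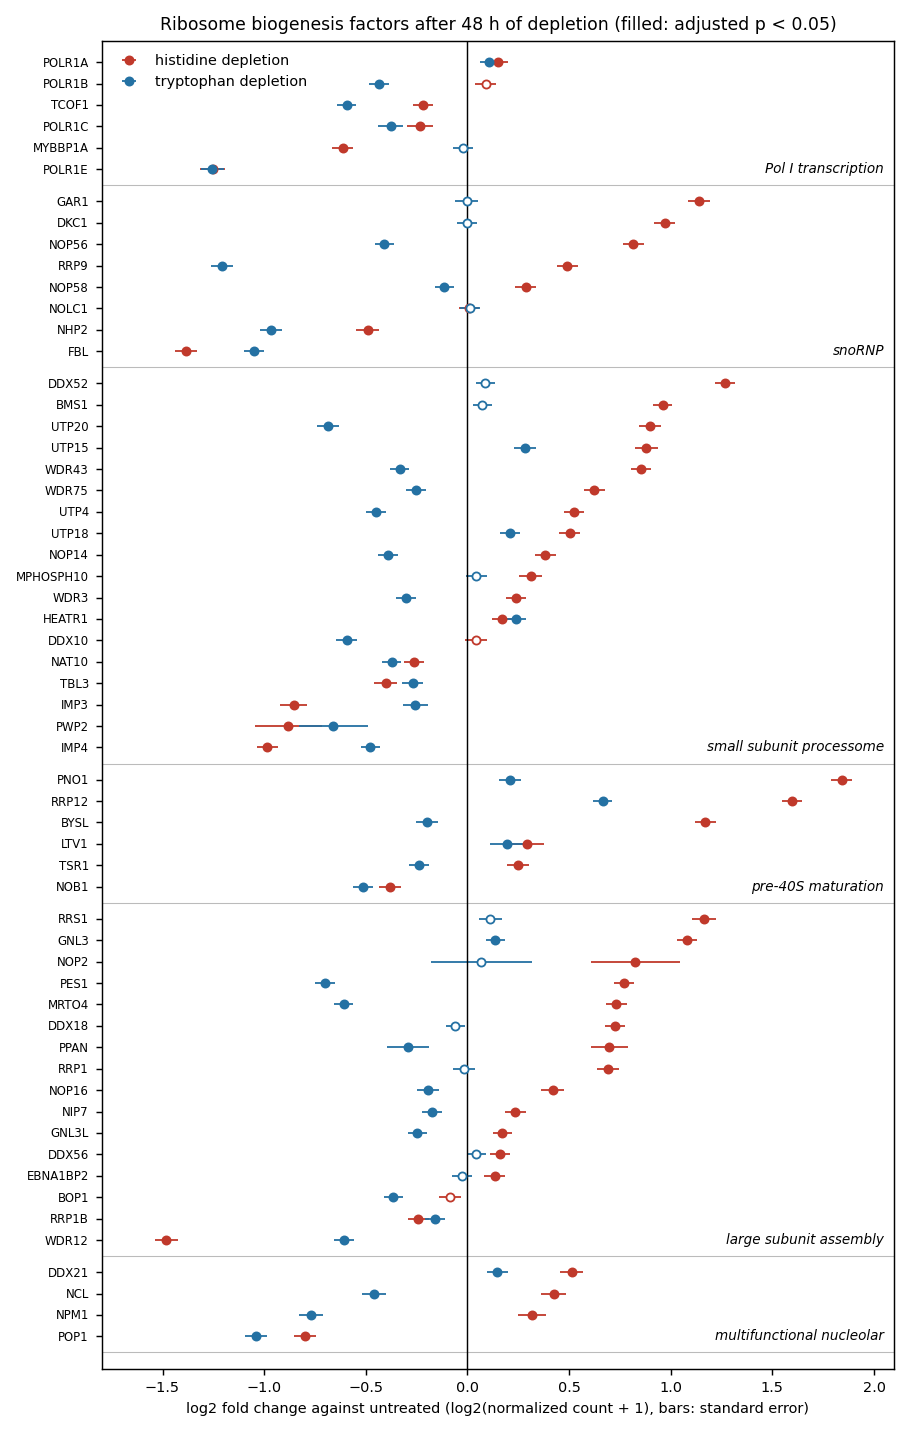
Log2 fold change against untreated cells (x axis) for each of the 58 genes, by role, after histidine depletion (red) and tryptophan depletion (blue). Bars are standard errors, filled points passed an adjusted p under 0.05 and open points did not, and PNO1 lies farthest right (1.84) and WDR12 farthest left (-1.48) among the red points.

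Pre-40S maturation held the largest rises. After histidine depletion 5 of its 6 genes were higher and NOB1 was lower (39.1% and 38.2% of all genes tested), with a median log2 fold change of 0.73. After tryptophan depletion 3 were higher and 3 lower (36.1% and 34.8% of all genes tested). PNO1 (chr2:68157888-68176238, ENSG00000115946), which shields the last cleavage site of small subunit RNA until the nuclease NOB1 acts, was at 1831 and 1729.7 normalized counts in untreated cells, 6474 and 6196 without histidine and 2025 and 2112 without tryptophan. On the scale of the histidine table it was 3.58 times the untreated level (log2 fold change 1.84, SE 0.0531, adjusted p = 1.14e-19), the largest rise of the 58 genes. The smaller log2 fold change after tryptophan depletion, 0.21 (SE 0.0540, adjusted p = 3.12e-04), did not pass without tryptophan depletion replicate 2 (adjusted p = 0.0566). RRP12 (chr10:97356358-97426076), an export factor of both subunits, was at 4169 and 4324 in untreated cells, 12685 and 12794 without histidine and 6761 and 6776 without tryptophan. It rose in both, to 3.02 times and 1.59 times the untreated level on the scales of their tables, with log2 fold changes of 1.59 (SE 0.0493, adjusted p = 4.21e-19) and 0.67 (SE 0.0470, adjusted p = 9.31e-28), and the direct difference was 0.91 (SE 0.0385, adjusted p = 4.57e-13).

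BYSL, which encodes bystin, a factor bound to the particle before export, changed in opposite directions. It was at 1942 and 1929 in untreated cells, 4259 and 4395 without histidine and 1679.6 and 1706 without tryptophan, with log2 fold changes of 1.17 (SE 0.0522, adjusted p = 4.57e-16) and -0.20 (SE 0.0543, adjusted p = 5.82e-04) and a direct difference of 1.35 (SE 0.0442, adjusted p = 1.48e-14). TSR1 and LTV1, which keep the immature particle from joining translation, rose after histidine depletion (0.25 and 0.29). After tryptophan depletion LTV1 rose (0.20) and TSR1 fell (-0.24), while NOB1 fell in both (-0.38 and -0.51). The rises of LTV1 are weak, since the first did not pass without untreated replicate 1 (adjusted p = 0.0564), nor the second without that library (0.10, adjusted p = 0.278) or without tryptophan depletion replicate 1 (0.0638) or replicate 2 (0.201). With quantile normalization they were 0.51 and 0.32, and that of TSR1 after histidine depletion was 0.16. Genes of the same strand overlap 34.7% of the exons of LTV1, and genes of the opposite strand 26.9% of those of TSR1.

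In large subunit assembly 13 of 16 genes rose after histidine depletion (39.1% of all genes tested), WDR12 and RRP1B fell (38.2%) and BOP1 did not pass, with a median log2 fold change of 0.56. After tryptophan depletion 9 fell (34.8% of all genes tested), GNL3 rose (36.1%) and 6 did not pass, with a median of -0.17. Between the depletions 14 of the 16 were higher after histidine depletion (38.7% of all genes tested), with a median of 0.64. PES1, BOP1 and WDR12 form the PeBoW complex, which is needed for processing of large subunit RNA, and their mRNAs went separate ways. PES1 was at 6148 and 6419 in untreated cells, 10357 and 10936 without histidine and 3963 and 3808 without tryptophan. Its log2 fold changes were 0.77 (SE 0.0507, adjusted p = 8.98e-13) and -0.70 (SE 0.0473, adjusted p = 2.46e-29), and the direct difference was 1.45 (SE 0.0427, adjusted p = 3.88e-15). WDR12 was at 4133 and 4449 in untreated cells, 1543 and 1508 without histidine and 2811 and 2854 without tryptophan. It had the largest fall of the 58 genes after histidine depletion (-1.48, SE 0.0556, adjusted p = 1.61e-17), fell less after tryptophan depletion (-0.61, SE 0.0490, adjusted p = 3.15e-23) and was lower after histidine than after tryptophan depletion (-0.89, SE 0.0469, adjusted p = 9.40e-12). BOP1 had a log2 fold change of -0.09 after histidine depletion that did not pass (adjusted p = 0.151), and it fell after tryptophan depletion (-0.36, SE 0.0486, adjusted p = 2.34e-11). The first was called lower without untreated replicate 1 (-0.16, adjusted p = 0.00554), with quantile normalization (-0.24, adjusted p = 4.46e-04) and by edgeR on the recovered reads (-0.096, adjusted p = 0.0392).

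RRS1, which helps to bring the smallest ribosomal RNA into the large subunit, was at 1469 and 1578 in untreated cells, 3274 and 3513 without histidine and 1692 and 1615 without tryptophan. It rose after histidine depletion (1.16, SE 0.0578, adjusted p = 3.74e-15), and its log2 fold change of 0.11 after tryptophan depletion did not pass (adjusted p = 0.0700, but 0.00457 without untreated replicate 2 and 0.00966 with quantile normalization). MRTO4, a relative of the ribosomal stalk protein that holds its place on the precursor particle, was at 6366 and 6725 in untreated cells, 10797 and 10808 without histidine and 4451 and 4175 without tryptophan, with log2 fold changes of 0.73 (SE 0.0501, adjusted p = 1.90e-12) and -0.61 (SE 0.0474, adjusted p = 1.58e-24). GNL3, the GTPase nucleostemin, rose in both (1.08 and 0.14), and the helicase DDX18 rose after histidine depletion (0.73) and did not pass after tryptophan depletion (-0.06). The rise of GNL3 after tryptophan depletion did not pass without tryptophan depletion replicate 1 (adjusted p = 0.0991) or replicate 2 (0.175), or with quantile normalization (0.065, 0.117). DDX18 was called lower after tryptophan depletion without untreated replicate 1 (-0.085, adjusted p = 0.0241) and with quantile normalization (-0.13, 9.08e-04), which also gave 0.47 after histidine depletion. For PPAN, RRP1, NOP16, NIP7, GNL3L, DDX56 and EBNA1BP2 the log2 fold change after histidine depletion ran from 0.13 (EBNA1BP2) to 0.70 (PPAN), each past the threshold. After tryptophan depletion that of the same genes ran from -0.29 (PPAN) to 0.04 (DDX56).

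Several of these small changes depend on single libraries or on the scaling. The rises of DDX56, EBNA1BP2 and GNL3L after histidine depletion did not pass without histidine depletion replicate 1 (adjusted p = 0.0627, 0.155 and 0.0715) or replicate 2 (0.121, 0.130 and 0.0892), and with quantile normalization they were -0.053, -0.0091 and -0.077, the last called lower (adjusted p = 0.0460). That of NIP7 was 0.13 (adjusted p = 0.00715). After tryptophan depletion the falls of NOP16 and RRP1B did not pass without tryptophan depletion replicate 1 (0.0929 and 0.146), that of NIP7 without replicate 2 (0.0584), and that of PPAN without replicate 1 (0.0561) or untreated replicate 1 (0.0516) or with quantile normalization (-0.21, 0.0597). NOP2, an RNA methyltransferase, had only 39.8 and 43.7 normalized counts in untreated cells and 85.8 and 64.1 after histidine depletion, a log2 fold change of 0.82 that did not pass without histidine depletion replicate 1 (0.61, with an adjusted p just above 0.05). A gene of the same strand overlaps 54.4% of its exons. For PPAN that share is 49.2%, through P2RY11 and a readthrough of both genes.

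The 4 multifunctional nucleolar proteins include NCL and NPM1, which held the most reads of the 58 genes. NCL (chr2:231453531-231483641), which encodes nucleolin, an RNA-binding protein of precursor folding and transcription, was at 69759 and 71133 normalized counts in untreated cells, 94412 and 93368 without histidine and 51172 and 51706 without tryptophan. It rose in the first and fell in the second, with log2 fold changes of 0.42 (SE 0.0636, adjusted p = 1.80e-06) and -0.46 (SE 0.0584, adjusted p = 2.79e-12) and a direct difference of 0.87 (SE 0.0423, adjusted p = 3.34e-12). NPM1 (chr5:171387116-171411810), which encodes nucleophosmin, the chaperone of the granular outer layer of the nucleolus, was at 79011 and 84718 in untreated cells, 102336 and 100354 without histidine and 48329 and 48214 without tryptophan. Its log2 fold changes were 0.32 (SE 0.0668, adjusted p = 1.48e-04) and -0.77 (SE 0.0592, adjusted p = 7.59e-25), and the direct difference was 1.07 (SE 0.0460, adjusted p = 5.95e-13). The rise of NPM1 after histidine depletion did not pass without histidine depletion replicate 1 (adjusted p = 0.120) or replicate 2 (0.0854), or with quantile normalization (0.051, 0.217). With quantile normalization that of NCL was 0.23 (adjusted p = 5.89e-05). Release 44 lists 49 pseudogenes named for NPM1, with which it may share reads.

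DDX21, a helicase that couples transcription by RNA polymerase I to processing, rose in both depletions, with log2 fold changes of 0.51 and 0.15. With quantile normalization these were 0.22 and -0.014, and the second did not pass without tryptophan depletion replicate 1 (adjusted p = 0.151) or replicate 2 (0.343). POP1, a protein of the RNases MRP and P, fell from 2741 and 2789.9 in untreated cells to 1575 and 1586 without histidine and 1359 and 1341 without tryptophan. Its log2 fold changes were -0.80 (SE 0.0548, adjusted p = 2.01e-12) and -1.04 (SE 0.0535, adjusted p = 4.03e-40), and it was higher after histidine than after tryptophan depletion (0.23, SE 0.0468, adjusted p = 2.87e-04). With NCL, NPM1 and DDX21, all 4 genes of this group were higher after histidine than after tryptophan depletion (38.7% of all genes tested).

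A second list of 137 other ribosome biogenesis genes, with no member in common, was described by counts. It was also chosen with earlier results of these data known and measured in the same libraries, so it is not an independent check. After histidine depletion 96 were higher and 28 lower (39.1% and 38.2% of all genes tested), with a median log2 fold change of 0.48. After tryptophan depletion 33 were higher and 75 lower (36.1% and 34.8% of all genes tested), with a median of -0.18. Between the depletions 107 were higher after histidine and 16 after tryptophan depletion (38.7% and 38% of all genes tested), with a median of 0.60. The same shares over all genes apply to the groups within the list. Within it, 30 of 40 small subunit factors and 37 of 46 large subunit factors were higher after histidine depletion, with medians of 0.71 and 0.49. Of the 16 other factors of RNA polymerase I, 13 were lower and 2 higher after tryptophan depletion (median -0.43). Of 12 other snoRNP proteins and assembly factors, 6 were higher and 6 lower after histidine depletion (median 0.03), and of 23 nucleases of ribosomal RNA processing 14 were higher and 6 lower (median 0.36).

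Because the depletions remove an amino acid, the coding sequences of the 58 genes were compared with those of all 13197 coding genes tested. Histidine codons made up a median of 2.45% of codons in the 58 genes and 2.45% in all, and tryptophan codons 0.785% and 1.08%. Lysine codons, which are frequent in nucleolar proteins, made up 8.05% and 5.68%. Across the 58 genes the share of histidine codons and the log2 fold change after histidine depletion had a Pearson's r of -0.32 and a Spearman's rho of -0.33, and the share of tryptophan codons and the change after tryptophan depletion had -0.20 and -0.13. The share of histidine codons and the change after tryptophan depletion had -0.18 and -0.26, and the share of tryptophan codons and the change after histidine depletion -0.25 and -0.062. The share of lysine codons had 0.30 and 0.32 with the change after histidine depletion. These describe genes measured in the same libraries, which are not independent points.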

How the data were processed

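Per the labels and the study's methods, the authors aligned the reads to GRCh38 with STAR 2.7.10a, counted them with HTSeq 2.0.5 on gencode 38 and divided the counts by DESeq2 size factors. The deposited values are these normalized counts (a non-negative signal), in 1 table for each depletion, both with the same untreated libraries. Treatment of molecular identifiers, strand and reads that map to several places is not given in the sources used here. Each library has a smallest step between values, and division by it gave whole reads for 100% of the values (tolerance 0.01), which were rescaled together by median-of-ratios size factors for the direct comparison and for the levels printed by library.

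Tests used limma 3.58.1 in R 4.3.3 with its trend, two-sided, on log2(normalized count + 1), over genes whose mean reached 10, with Benjamini-Hochberg adjustment over all genes tested and a threshold of 0.05. Each depletion was tested within its own table, and the 6 libraries entered the direct comparison. The pseudocount makes fold changes of low genes look smaller than they are. Levels per kilobase use all annotated exon bases of a gene. Gene names came from gencode 44, promoters from RefSeq, and 137 of 139 other ribosome biogenesis genes were matched.

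The members and lists were chosen with earlier results of these data known. Genes were named by rule (the 5 largest and 5 smallest changes past the threshold per comparison, the largest change per role, and NCL, NPM1, FBL, NOP56, DKC1, POLR1A, POLR1B and TCOF1 by name), with the other 31 members named after their values were seen. Alternatives were pseudocounts of 0.5 and 8, other filters, limma without trend, quantile normalization, count tests on the recovered reads (edgeR 4.0.16, DESeq2 1.42.0), a replicate block, 1 fit of all 6 libraries and each library left out. A limit of 1.5-fold and a loess correction for GC content and length were added after the data were seen. On the recovered reads edgeR called 7169 genes higher and 7111 lower after histidine depletion. After tryptophan depletion it called 6490 and 6349, and in the direct comparison 7053 and 7187. DESeq2 called fewer, 6330 and 6154, 5423 and 5354, and 6447 and 6212 in the same order. The tests were tried on simulated data, and no result of that trial is given here. Python 3.11.15, pandas 2.3.3 and numpy 2.4.6 were used for tables.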

Additional observations from a re-analysis of the deposited data

Results flagged for a closer look

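For 19 of the 58 genes the depletions had opposite calls against the same untreated libraries, higher after histidine and lower after tryptophan depletion, as had 8.55% of the 17470 genes tested in both tables. Their log2 difference in the direct comparison by limma, histidine minus tryptophan depletion, is given as a description, since the genes were picked from the same libraries. It was 1.68 for RRP9, 1.57 for UTP20, 1.45 for PES1, 1.35 for BYSL, 1.33 for MRTO4, 1.21 for NOP56, 1.17 for WDR43 and 1.07 for NPM1. It was 0.97 for PPAN, 0.96 for UTP4, 0.87 for NCL, 0.86 for WDR75, 0.76 for NOP14, 0.60 for NOP16, 0.52 for WDR3, 0.47 for TSR1, 0.40 for GNL3L (0.25 with quantile normalization), 0.39 for NIP7 and 0.38 for NOP58.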

How the results depend on the processing

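Precision is limited by 2 libraries per condition. The least covered genes were NOP2 and PWP2, with at most 131 reads in each library. Counts are relative to the library, so a change in total RNA per cell is not seen.

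Shares over all genes are not given for the other limma settings in this section, so their counts of members have no such reference. With quantile normalization the median log2 fold change of the 58 genes was 0.17 after histidine depletion and 0.42 in the direct comparison, where 10 genes were lower. The medians over all genes tested were then -0.0165 and -0.0076. After histidine depletion it turned POLR1A (-0.094) and GNL3L (-0.077) from higher to called lower and called NOLC1 lower (-0.24), and it turned the sign without a call for HEATR1 (-0.0058), EBNA1BP2 (-0.0091), DDX56 (-0.053), POLR1B (-0.052) and DDX10 (-0.069), while NPM1 (0.051) and WDR3 (0.083) no longer passed. After tryptophan depletion it gave 0.041 for GAR1, 0.027 for RRP1, -0.014 for DDX21, -0.021 for DDX56 and -0.043 for NOLC1, none past the threshold. In the direct comparison POLR1A (-0.12, adjusted p = 0.00153) and RRP1B (-0.16, 6.59e-04) were called lower and LTV1 was called higher (0.19, 0.0368). NAT10 (-0.048), DDX56 (-0.030), POLR1E (0.036), NOB1 (0.028, adjusted p = 0.490) and EBNA1BP2 (0.052, 0.133) did not pass there. By edgeR NOLC1 had -0.0015 after histidine depletion, DDX52 was called higher after tryptophan depletion (adjusted p = 0.0219) and HEATR1 lower in the direct comparison (0.00929). POLR1C (0.0732) and NAT10 (0.0511) did not pass by edgeR in the direct comparison. By DESeq2 LTV1 (adjusted p = 0.198), PPAN (0.0812) and POLR1A (0.0531) did not pass after tryptophan depletion, nor POLR1C in the direct comparison (0.122). With all 6 libraries in 1 fit, DKC1 and GAR1 had 0.0055 and 0.0027 after tryptophan depletion and NOLC1 -0.00093 after histidine depletion. In that fit DDX52 was called higher after tryptophan depletion (0.095, adjusted p = 0.0352). Without the limma trend 33 genes were higher after histidine depletion, the rises of DDX56, EBNA1BP2, GNL3L, HEATR1, LTV1 and POLR1A not passing (adjusted p from 0.0507 to 0.111). After tryptophan depletion 4 were higher and 31 lower, without the rises of DDX21, GNL3, LTV1, PNO1 and POLR1A and the falls of NIP7, NOP16, NOP58, RRP1B and TBL3. In the direct comparison 41 were higher and 5 lower, without DDX56, NAT10, NOB1, POLR1C and TBL3. Without the filter on low values LTV1, NOP58 and POLR1A did not pass after tryptophan depletion, nor NOB1, POLR1C and TBL3 in the direct comparison. With the limit of 1.5-fold, 20 were higher and 8 lower after histidine depletion, 1 and 13 after tryptophan depletion, and 26 and 3 in the direct comparison. The cause of these shifts was not tested, apart from the limit, which removes small changes by construction.

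With each library left out in turn, the median after histidine depletion ran from 0.26 to 0.36 and the number of genes higher after tryptophan depletion from 4 to 11. In the same settings the log2 fold change after tryptophan depletion ran from -0.014 to 0.010 for DKC1, -0.049 to 0.039 for GAR1, -0.048 to 0.0037 for MYBBP1A, -0.0019 to 0.030 for NOLC1, -0.018 to 0.15 for NOP2 and -0.057 to 0.022 for RRP1. After histidine depletion it ran from -0.019 to 0.10 for DDX10 and -0.012 to 0.029 for NOLC1, and the direct difference from -0.072 to 0.043 for POLR1E and -0.046 to 0.0013 for NOLC1. With the replicate numbers as a replicate block, 39 genes were higher and 15 lower after histidine depletion, 9 and 36 after tryptophan depletion, and 45 and 7 in the direct comparison. The gene that the block added to the lower ones was RRP1B (adjusted p = 0.0414 by limma). RRP1B was also called lower there with a pseudocount of 8 (0.0481) or a filter at a mean of 50 (0.0442). Over genes, the deviations of same-numbered samples from their group means correlated at 0.042 (untreated and histidine depletion) and 0.00196 (untreated and tryptophan depletion). Between the depletions the correlation was -0.0412. The labels do not say whether same-numbered samples were handled together, and with 2 samples per condition these correlations cannot decide it. With the trend on GC content and length removed, the medians were 0.26, -0.24 and 0.49 in the order above.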
